A study of Mus musculus with 8 samples.

Results

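The Chd genes Chd1 to Chd9 encode the chromodomain helicase DNA-binding proteins, and their m6A peaks in E14 mouse embryonic stem cells (mESCs) were collected as all peaks whose midpoint lay within the span of 1 of the 9 genes on its own strand (GENCODE annotation, mm10 coordinates). This gave 49 peaks of 17068 in all. Chromatin-associated RNA, which is rich in unspliced transcripts, had been immunoprecipitated with an m6A antibody from Synaptic Systems (SySy) or from Abcam and sequenced beside its input, in 2 libraries for each of the 4 kinds. All libraries came from this 1 cell line, grown undifferentiated with serum and LIF on gelatine, and no treatment or engineered allele is named for it. Of the 3 deposited peak lists, Cfg1 (5277 peaks) is the set found by both antibodies. Cfg2 (5472 peaks) passed the caller for SySy but remained below its threshold for Abcam, and Cfg3 (6319 peaks) passed it for Abcam alone. Peaks of Cfg1 and Cfg2 are named SySy-called here. Each list came from pooled duplicates and holds intervals only, so there is no peak height, no depth, no expression level and no error between replicates. Per the study's methods the 2 antibodies also went with different library kits, while the sample labels name the same kit for all, so that antibody and kit cannot be told apart.

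CHD proteins are ATP-driven remodellers that slide, space or eject nucleosomes, and all carry paired chromodomains ahead of a helicase-like motor. The family falls into 3 subfamilies: Chd1 and Chd2, Chd3 to Chd5, and Chd6 to Chd9. Chd1 works on transcribed genes and is known for the open chromatin of mESCs. Chd4 is the main motor of the NuRD deacetylase complex, and Chd7 and Chd8 are known for human developmental disorders. m6A is a methyl mark placed on adenosine during transcription by a complex with METTL3 as its catalytic subunit. The mark favours GGACT and related pentamers, and it is common in long internal exons and near stop codons.

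The sequences shown first are those of an exon that Chd6 to Chd9 share and that held peaks in all 4 genes. It is exon 31 of Chd6, exon 31 of Chd7, exon 32 of Chd8 and exon 32 of Chd9, each a long coding exon in the part of the gene downstream of the helicase domain. When the encoded proteins were aligned in pairs, between 97.4% and 100% of the aligned residues of this exon fell in the partner exon over the 6 pairs, with 40.5% to 49.6% of them identical. Of the 524 residues of Chd6 exon 31, the partner exons of Chd7, Chd8 and Chd9 aligned with 223, 238 and 301. A single stretch of 23 residues (residues 1941 to 1963 of Chd8) lay under a peak in all 4 genes, and 10 of its residues were identical in all 4. The peak that covers it is printed for each gene from GRCm38.p6 in the direction of transcription, with the 69 bases of the shared stretch in capitals.
Chd6 exon 31, Cfg1, chr2:160966458-160966626 (minus strand): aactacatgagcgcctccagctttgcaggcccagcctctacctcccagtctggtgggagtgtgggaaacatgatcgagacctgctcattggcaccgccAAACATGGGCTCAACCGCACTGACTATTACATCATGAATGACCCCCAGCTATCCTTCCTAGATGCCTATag
Chd7 exon 31, Cfg3, chr4:8855053-8855216 (plus strand): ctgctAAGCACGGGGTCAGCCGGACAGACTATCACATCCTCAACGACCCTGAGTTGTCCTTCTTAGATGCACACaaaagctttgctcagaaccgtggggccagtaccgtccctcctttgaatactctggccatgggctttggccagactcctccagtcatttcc
Chd8 exon 32, Cfg1, chr14:52205216-52205293 (minus strand): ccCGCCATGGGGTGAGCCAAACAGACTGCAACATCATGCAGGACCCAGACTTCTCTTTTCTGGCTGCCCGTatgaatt
Chd9 exon 32, Cfg1, chr8:91033495-91033678 (plus strand): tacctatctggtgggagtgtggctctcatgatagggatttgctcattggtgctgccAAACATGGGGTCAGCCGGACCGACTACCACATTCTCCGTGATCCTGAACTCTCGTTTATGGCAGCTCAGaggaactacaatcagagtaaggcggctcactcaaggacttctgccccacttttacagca
Within the capitals, between 63.8% and 73.9% of bases were identical from gene to gene. None of the 4 stretches in capitals holds GGACT, but each holds GACT, starting at base 22 of the stretch in all 4. The base before it is T in Chd6, A in Chd7 and Chd8, and C in Chd9. With C in front, the Chd9 copy is not a consensus pentamer as defined for Chd2 below, although the Chd9 capitals do hold GGACC, which is. The stretch was chosen by aligned residues, so the shared GACT is not a result apart from that alignment. In Chd9 a GGACT follows further downstream in the same peak, left in lower case.

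GGACT sites under Cfg1 peaks near the ends of the coding sequence are given next, each with 12 bases on either side and the motif in capitals. For each peak only the site nearest its midpoint is printed: the Chd8 exon 2 peak holds 3 GGACT and the Chd8 exon 38 peak 2, while the Cfg1 peaks of Chd2 and Chd6 within 200 nt of the stop codon, and the first of the Chd1 pair there, hold none. The sites are shown because the stop codon is the position at which most members carried a peak, and the start of the coding sequence one that Chd8 and Chd9 had in common. Distances run along the spliced transcript from the last base of the stop codon to the A of the motif.
Chd1 exon 36, 28 nt after the stop codon, chr17:15770337-15770365 (plus strand): gtttgtcttccgGGACTttgttttagcca
Chd7 exon 38, 49 nt before the end of the stop codon, chr4:8866592-8866620 (plus strand): gggtgaagagctGGACTccctcgaaggcg
Chd8 exon 38, 57 nt after the stop codon, chr14:52198521-52198549 (minus strand): actctggcccttGGACTttggaaatgtgg
Chd9 exon 40, 25 nt before the end of the stop codon, chr8:91051933-91051961 (plus strand): ttcatcctccgaGGACTcagactcgagca
Chd8 exon 2, near the start codon, chr14:52237445-52237473 (minus strand): gaagaagcacttGGACTgccaagctctct
Chd9 exon 3, near the start codon, chr8:90932419-90932447 (plus strand): agacccaatgatGGACTtttttgatgatg

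The 49 peaks were unevenly spread over the family. Cfg1 held 24 of them in 6 genes, Cfg2 held 7 in 4 genes and Cfg3 held 18 in 8 genes, and Chd3 was the only member without a peak in any list. Over 22028 coding genes, 12.1% carried a Cfg1 peak by the same rule, 13.7% a Cfg2 peak, 13.2% a Cfg3 peak and 25.0% a peak of any list. SySy-called peaks lay in 7 of the 9 Chd genes, against 19.6% of coding genes. Chd transcripts are long, and the shortest has 6537 nt. Among the 1641 coding genes whose representative transcript was at least that long, 43.3% carried a SySy-called peak, 33.8% a Cfg3 peak and 50.6% a peak of any list. A gene with few transcripts in these cells cannot yield a peak, and the lists do not tell such a gene from an unmethylated one.

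**Figure D1:**
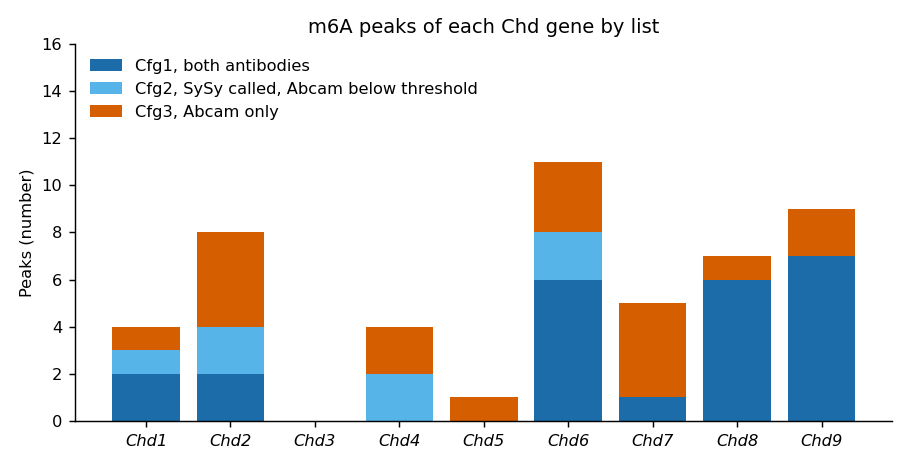
Number of m6A peaks (y axis) in each of the 9 Chd genes (x axis), with Cfg1 in dark blue, Cfg2 in light blue and Cfg3 in orange. Chd6 has the tallest bar with 11 peaks, Chd3 has none, and Chd5 has 1 Cfg3 peak only.

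By subfamily, Chd6 to Chd9 carried 22 of the 31 SySy-called peaks, 20 of them in Cfg1, beside 10 Cfg3 peaks. Chd1 and Chd2 carried 7 SySy-called and 5 Cfg3 peaks. Chd3 to Chd5 carried 2 SySy-called peaks, both in Cfg2, and 3 Cfg3 peaks. Per kb of exon this came to 0.539 SySy-called peaks in Chd6 to Chd9, 0.412 in Chd1 and Chd2, and 0.0859 in Chd3 to Chd5. The Chd5 transcript, with 9486 nt, held no SySy-called peak. Among the 7 members with a SySy-called peak the median was 0.44 per kb of exon, beside a median of 0.414 over the 4314 coding genes with such a peak and 0.292 over the 711 of them with a transcript as long as the shortest Chd transcript. Peaks split from 1 broader called region are counted singly here: the 31 SySy-called peaks came from 18 called regions and the 18 Cfg3 peaks from 17. By gene, the called regions behind the SySy-called peaks numbered 1 in Chd1, 1 in Chd2, 2 in Chd4, 5 in Chd6, 1 in Chd7, 4 in Chd8 and 4 in Chd9. Counted by region, Chd1 and Chd2 together thus equalled Chd4, so the gap per kb between their 2 subfamilies depends on the splitting. Chd6 to Chd9 still had the most called regions, with 5, 1, 4 and 4.

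**Figure D2:**
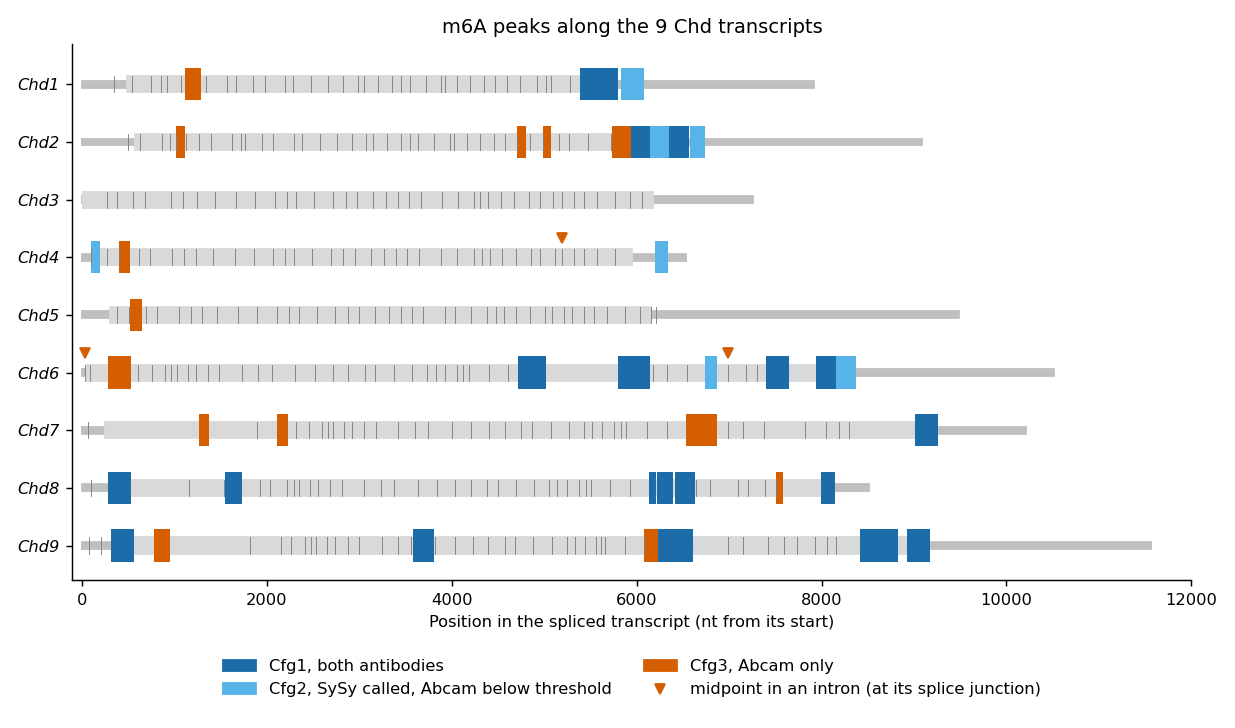
Peaks drawn to scale on the representative spliced transcript of each Chd gene (x axis, nt from the transcript start), with the coding sequence as a thick grey bar, untranslated regions as thin bars and exon borders as ticks. Cfg1 is dark blue, Cfg2 light blue and Cfg3 orange, and a triangle marks the splice junction of an intron that holds a peak midpoint. Of the 31 SySy-called peaks, 16 stand in last exons and 12 in internal exons of 400 nt or more, and all 3 triangles are Cfg3 peaks.

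Chd1, which reads methylated histone H3 tails at transcribed genes, had its 3 SySy-called peaks side by side in the last exon (exon 36, 2633 nt). They were split from 1 called region of 690 nt (chr17:15770083-15770772) and their midpoints lay 147 nt before, 61 nt after and 324 nt after the stop codon, the first and second in Cfg1 and the third in Cfg2. The transcript holds only 2 GGACT sites in 7916 nt, and both lay under these peaks, 28 and 437 nt after the stop codon. Its Cfg3 peak lay in exon 7, at codon 237.

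Chd2, the closest relative of Chd1 with 63.6% identical residues, showed the same position with a different sequence. A called region of 796 nt in its last exon (chr7:73428984-73429779, exon 39) gave 4 adjoining peaks with midpoints 10 nt before and 194, 403 and 605 nt after the stop codon, alternating between Cfg1 and Cfg2. The Chd2 transcript holds 11 GGACT sites, and none of them lay under a peak of any list. All 4 peaks held at least 1 of the 18 consensus pentamers (A, G or T, then A or G, then AC, then A, C or T). A Cfg3 peak adjoined the called region on its upstream side with 6 bases between them, at 222 nt before the stop codon. It was itself split from a broader region called with Abcam, from which no other Chd2 peak in Cfg3 came. The other 3 Cfg3 peaks lay in exons 6, 33 and 35, which have only 108, 141 and 179 nt, and each of them ran over a splice site into the intron.

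Chd3, Chd4 and Chd5 are the alternative motors of NuRD and share 73.1% to 74.4% of residues, yet their peaks were few. Chd3 had none, although its transcript has 7261 nt and 4 GGACT sites. Chd4 had 2 Cfg2 peaks, in the 5′ UTR (exon 2) and 320 nt after the stop codon (exon 39), and 2 Cfg3 peaks, in exon 4 and in intron 34. Chd5, known as a neural member, had 1 Cfg3 peak, in exon 3. The coding Cfg3 peaks of Chd4 and Chd5 lay close to each other on the aligned proteins: codon 89 of Chd4 corresponds to codon 72 of Chd5, 25 residues from that peak's midpoint at codon 97.

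Chd6, a remodeller with a less well defined role, carried the most peaks of the family, with 6 in Cfg1, 2 in Cfg2 and 3 in Cfg3. At least as many peaks were found in 5.48% of the coding genes with a transcript of 6537 nt or more. Of its SySy-called peaks, 4 lay in exon 31, whose 1572 nt make it the longest exon of the 37 but the last. They came from a pair of called regions at opposite ends of that exon, at codons 1584 and 1633 and at codons 1943 and 2001. The remaining SySy-called peaks lay in exon 34 (453 nt) and in the last exon, with midpoints 666 nt before, 146 nt before and 70 nt after the stop codon. Its Cfg3 peaks lay in coding exon 3 and in introns 1 and 34, the first of these introns having 49014 nt and the other 2749 nt.

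Chd7, the member mutated in CHARGE syndrome in humans, had the opposite balance of lists to Chd6. It had 1 SySy-called peak, in Cfg1 and with its midpoint 80 nt before the end of the stop codon, and 4 Cfg3 peaks, in exon 2, in exon 3 and as a pair in exon 31. Exon 2 (1825 nt) was the longest internal exon of the family and held no SySy-called peak. The Cfg3 peak in it was the only one of the 18 Cfg3 peaks with a GGACT, in capitals here, and is shown for that reason.
Chd7 exon 2, Cfg3, chr4:8752526-8752633 (plus strand): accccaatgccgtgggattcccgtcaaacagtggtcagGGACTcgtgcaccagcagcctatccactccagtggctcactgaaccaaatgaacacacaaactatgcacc
The Chd7 transcript holds 14 GGACT sites, of which 1 lay under a SySy-called peak and 1 under a Cfg3 peak.

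Chd8, a partner of CTCF and a regulator of beta-catenin target genes, carried 6 Cfg1 peaks, none in Cfg2 and 1 in Cfg3. They covered both ends of the coding sequence and the shared exon: exon 2 at codon 30, exon 4 at codon 442, 3 adjoining peaks in exon 32 at codons 1953, 1996 and 2068, and exon 38 with the midpoint on the last base of the stop codon. Of its 13 GGACT sites, 7 lay under these peaks, the most of any member, 3 of them in the exon 2 peak alone. The Cfg3 peak lay 552 nt before the end of the stop codon and crossed the splice site at the start of exon 38.

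Chd9, the longest transcript of the family with 11565 nt, had 7 Cfg1 peaks and 2 Cfg3 peaks. The Cfg1 peaks lay in exon 3 at codon 23, in exon 16 at codon 1110, in exon 32 at codons 1986 and 2049, and in exon 40 with midpoints 508 nt before, 304 nt before and 17 nt after the stop codon. One Cfg3 peak shared exon 3 with a Cfg1 peak and the other stood at the very start of exon 32, with 9 bases between it and the first of the Cfg1 peaks there. The Cfg3 peak of exon 32 was split from a broader region called with Abcam, from which no other Chd9 peak in Cfg3 came. The Chd8 and Chd9 peaks near the start codon lay close on the aligned proteins: codon 30 of Chd8 aligned with codon 32 of Chd9, 9 residues from the midpoint of the Chd9 peak. Of the residues aligned between Chd8 exon 2 and Chd9 exon 3, 27.9% were identical. Alignment over the whole length can by itself bring residues near the start codons together, so this closeness carries no test.

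The exon shared by Chd6 to Chd9 held 12 of the 49 peaks. Of these, 9 were Cfg1 peaks (4 in Chd6, 3 in Chd8 and 2 in Chd9), which is 29.0% of the SySy-called Chd peaks in 4.77% of the exon bases of the 9 transcripts. The other 3 were Cfg3 peaks, 2 in Chd7 and 1 in Chd9. The Cfg1 peaks came from a pair of called regions in Chd6, 1 in Chd8 and 1 in Chd9, of 18 called regions behind all SySy-called Chd peaks. For the peaks that cover the stretch printed above, Chd8 codon 1953 aligned with Chd9 codon 1987, 1 residue from a Chd9 peak midpoint. Chd6 codon 1584 aligned with Chd8 codon 1936, 17 residues from a Chd8 midpoint, and Chd7 codon 2121 with Chd8 codon 1966, 13 residues away. Chd7 codon 2121 lay 14 residues from a Chd9 midpoint, and Chd6 codon 1584 lay 16 from a Chd9 and 30 from a Chd7 midpoint. On Chd8 numbering the Chd6 and Chd7 midpoints thus fell on opposite sides of the stretch (residues 1941 to 1963). The stretch itself was under a peak in all 4 paralogues, called with both antibodies in Chd6, Chd8 and Chd9 and with Abcam only in Chd7. In each gene the next peak split from the same called region adjoins it downstream, so the downstream end of the stretch depends on the splitting. Further along the exon the distances varied more widely. No aligned position was obtained for the Chd6 Cfg1 peak at codon 1943, and none in Chd7 or Chd8 for that at codon 1633. On the aligned proteins, Chd6 codon 1633, Chd8 codon 1996 and Chd8 codon 2068 lay 30, 25 and 80 residues from the nearest Chd9 midpoint. Chd6 codon 2001 lay 7 residues from the nearest Chd8 midpoint, 35 from the nearest in Chd7 and 124 from the nearest in Chd9. The exon was picked because it held peaks in all 4 genes, so its share of the peaks carries no test. The alignment was computed after the peaks had been seen and carries none either.

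**Figure D3:**
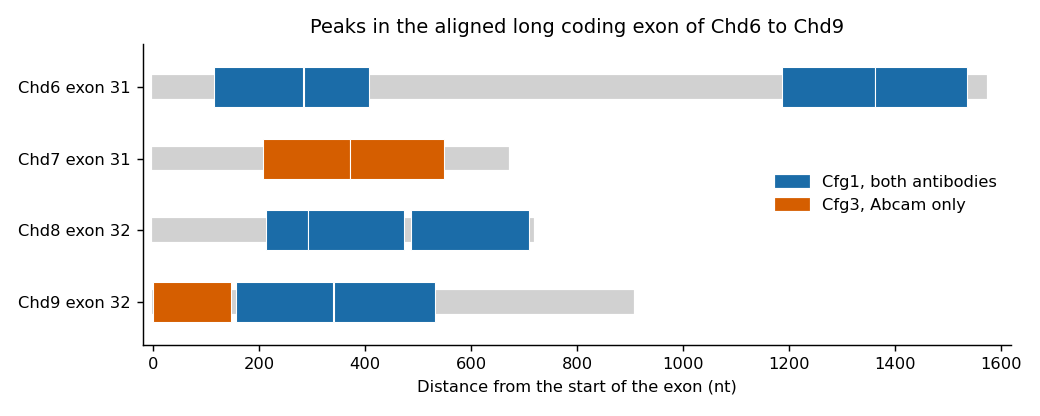
Peaks in the long coding exon that Chd6, Chd7, Chd8 and Chd9 share (rows), drawn to scale from the start of each exon (x axis, nt), with Cfg1 in dark blue and Cfg3 in orange. All 4 exons hold peaks, and those of Chd7 exon 31 are both Cfg3.

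Long internal exons and last exons together held most of the SySy-called peaks. The 9 transcripts have 349 exons with a median length of 145 nt, and only 12 of the 340 exons before the last reach 400 nt. Those 12 make up 17.7% of the bases before the last exons and held 12 of the 15 SySy-called peaks there (80%), in 6 of the 12 exons. These peaks were all in Chd6, Chd8 and Chd9, and 9 of them are the Cfg1 peaks of the shared exon already described. Of the 13 exonic Cfg3 peaks before the last exon, 7 lay in such exons (53.8%, 95% Clopper-Pearson interval 25.1% to 80.8%), against 68.4% of 1214 coding Cfg3 peaks outside the last exon in other coding genes. Among SySy-called coding peaks outside the last exon, 12 of 14 Chd peaks (85.7%, interval 57.2% to 98.2%) and 91.0% of 3080 peaks of other coding genes lay in exons of that length. In both cases the share of the other genes lies within the interval of the Chd genes. These intervals cover counting error only, and the peaks of 1 gene are not independent of each other.

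The last exon held 16 of the 31 SySy-called peaks (51.6%, interval 33.1% to 69.8%), against 60.1% of 8723 exonic SySy-called peaks in other coding genes. It held 2 of the 15 exonic Cfg3 peaks (13.3%, interval 1.66% to 40.5%), against 43.0% of 2203 in other coding genes, a value just above that interval. The midpoint lay within 200 nt of the end of the stop codon for 9 of the 31 (29.0%, interval 14.2% to 48.0%), against 23.9% in other coding genes. Such a peak was found in 6 of the 9 members (Chd1, Chd2, Chd6, Chd7, Chd8 and Chd9), against 8.10% of all coding genes and 17.1% of the coding genes with transcripts of 6537 nt or more. None of the 15 exonic Cfg3 peaks lay that close to the stop codon (interval up to 21.8%), against 15.6% of 2203 in other coding genes.

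The first question put to these peaks was whether SySy-called and Abcam-only peaks differ in how often they fall in introns. Of the Chd peaks, 0 of 31 SySy-called peaks and 3 of the 18 Cfg3 peaks (16.7%) had an intronic midpoint, a difference of -16.7 percentage points (95% interval -39.2 to -1.21) with p = 0.0443 by two-sided Fisher's exact test, 0.0443 after Benjamini-Hochberg adjustment over the 2 tests. Introns make up 91.2% of the 9 gene spans. The call rested on very few peaks: without Chd6, which holds 2 of the 3 intronic peaks, the difference was -6.67 points (exact p = 0.395), and it also missed the threshold without Chd4, Chd8 or Chd9 and with 1 peak per called region (exact p = 0.104, these p-values being unadjusted). In other coding genes 8.67% of 9551 SySy-called and 57.8% of 5224 Cfg3 peaks were intronic. The interval of the Chd share in Cfg3, which treats peaks as independent, ran between 3.58% and 41.4% and did not hold the value of the other genes.

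The 3 intronic peaks differed in setting. In Chd4 the peak (chr6:125122747-125122853) lay at the downstream end of intron 34, 252 nt from the 5′ splice site of an intron of 269 nt, and 36 of its 107 bases reached into exon 35. In Chd6 the peaks in intron 1 (chr2:161095723-161095889) and intron 34 (chr2:160957416-160957547) touched no exon and lay 13183 nt and 2496 nt from the 5′ splice site. None of the 3 midpoints was exonic in another annotated transcript, and none of the 3 peaks held GGACT on its own strand. Of the 15 Cfg3 peaks with an exonic midpoint, 5 ran into an intron, as did 1 of the 31 SySy-called peaks.

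The second question was whether the lists differ in GGACT. On the strand of the peak, 15 of the 31 SySy-called Chd peaks (48.4%) and 1 of the 18 Cfg3 peaks (5.56%) held it, a difference of 42.8 percentage points (95% interval 16.8 to 60.2) with p = 0.00351 by two-sided Fisher's exact test, 0.00701 after Benjamini-Hochberg adjustment. The difference stayed past the threshold without each of the genes in turn and with 1 peak per called region (exact p = 0.000945). The p-values of both questions treat peaks as independent, which peaks of 1 gene are not. The Chd peaks of Cfg1 had a median width of 202.5 nt, those of Cfg2 158 nt and those of Cfg3 151.5 nt. In windows that reached 50 nt to each side of the midpoint, 8 of 31 SySy-called peaks (25.8%) and 1 of 18 Cfg3 peaks held GGACT, a difference of 20.3 points that no longer passed the threshold (exact p = 0.127).

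By list, GGACT was held by 54.2% of 24 Cfg1 Chd peaks (interval 32.8% to 74.4%), against 37.9% of the Cfg1 peaks of other coding genes. It was held by 28.6% of 7 Cfg2 Chd peaks (interval 3.67% to 71.0%), against 31.7% in other genes, and by 5.56% of 18 Cfg3 Chd peaks (interval 0.141% to 27.3%), against 17.2% in other genes. The lists stood in the same order in both sets of genes, and each Chd interval holds the value of the other genes. In the windows of 50 nt to each side of the midpoint the Chd shares were 29.2% in Cfg1, 14.3% in Cfg2 and 5.56% in Cfg3. When the spliced transcripts were cut into windows of this length, 9.65% of 798 Chd windows and 9.97% of 662917 windows of all coding transcripts held GGACT. On the opposite strand 5 of 31 SySy-called Chd peaks (16.1%) and 1 of 18 Cfg3 Chd peaks (5.56%) held GGACT, a gap in the same direction that was not tested. At least 1 of the 18 consensus pentamers was held by all 31 SySy-called and by 17 of 18 Cfg3 peaks (exact p = 0.367). The Cfg3 peak without one was that in Chd4 intron 34.

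**Figure D4:**
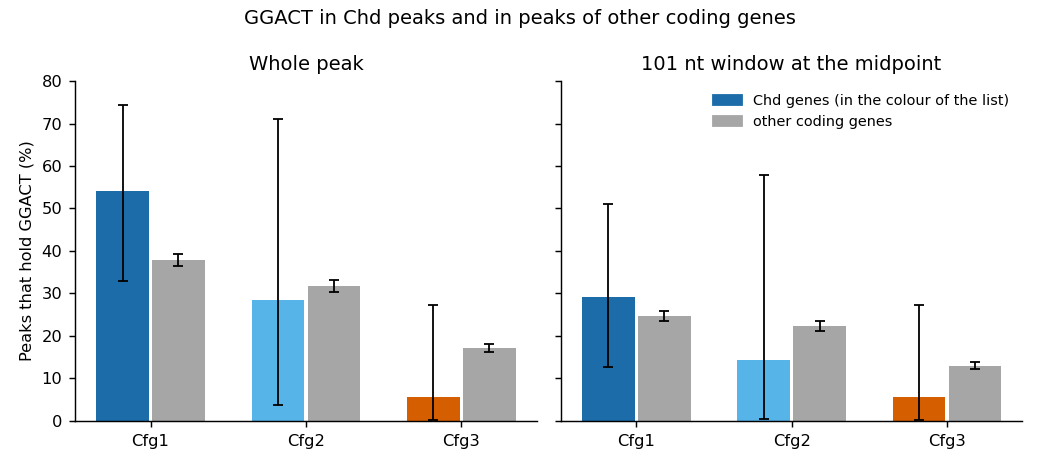
Share of peaks with GGACT on their own strand (y axis, %) for Chd genes (coloured bars) and other coding genes (grey bars) in Cfg1, Cfg2 and Cfg3, in the whole peak (left panel) and in the window of 50 nt on each side of the midpoint (right panel). Error bars are 95% Clopper-Pearson intervals for counting error. The Chd bars descend from 54.2% in Cfg1 to 5.56% in Cfg3 in whole peaks, with intervals that include the grey bars.

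Read from the side of the sites, the 9 spliced transcripts hold 82 GGACT sites, of which 18 (22.0%) lay wholly under a SySy-called peak and 1 under a Cfg3 peak. SySy-called peaks covered 7.34% of the exon bases. The share of sites under a peak differed widely between members, with 2 of 2 in Chd1, 7 of 13 in Chd8, 4 of 10 in Chd6, 4 of 14 in Chd9, 1 of 14 in Chd7 and 0 of 11 in Chd2. The 4 sites of Chd3, the 4 of Chd4 and the 10 of Chd5 lay under no peak. Members with many sites thus included some with none under a peak, and Chd2 had 4 SySy-called peaks with no GGACT in any of them.

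Genes that work with the CHD proteins were counted by the same rule, beside the 19.6% of all coding genes with a SySy-called peak. Of 12 NuRD subunits, 2 carried a SySy-called peak (16.7%), a share near that of all coding genes: Mbd3, the methyl-binding-domain subunit, with 2 Cfg1 peaks, and Gatad2a, a scaffold subunit, with 1. Of the 3 ChAHP genes, which join Chd4 to Adnp and HP1 proteins, Adnp carried 5 SySy-called peaks (3 in Cfg1 and 2 in Cfg2), Cbx1 carried 1 in Cfg2 and Cbx3 had none. Of 8 FACT and PAF1 complex genes, which act with Chd1 on elongating polymerase, 4 carried a SySy-called peak, with most peaks in the histone chaperone subunit Supt16 (1 in Cfg1, 2 in Cfg2 and 3 in Cfg3). Of 9 genes for partners of CHD7 and CHD8, 6 did, led by the PBAF subunit Arid2 with 4 Cfg1, 1 Cfg2 and 4 Cfg3 peaks. The transcripts of the lists differ in length, with a median of 9085 nt for the Chd genes and 2165.5 nt for NuRD subunits. Among markers of the cell type, 7 of 8 embryonic stem cell genes and 0 of 4 fibroblast genes carried a SySy-called peak, beside the same 19.6% of all coding genes.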

How the data were processed

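Chromatin-associated RNA from E14 mESCs had been immunoprecipitated with 2 m6A antibodies and sequenced beside its input, in 8 libraries. The authors deposited 3 lists of peak intervals, whose score column is 0 for all 17068 peaks and whose start and end columns were used. Per the study's methods and processing notes, peaks were called with MACS2 2.1.1 on pooled duplicates, split between summits, trimmed to 125 nt on each side of a summit and given the strand of higher enrichment. HOMER is also named. The splitting sets the peak counts, and the trimming caps widths at 250 nt. The aligner is not given in the sources used here. One strand field with a stray character was read as plus.

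Midpoints were placed on the GENCODE vM21 transcript with the longest coding sequence (GRCm38.p6, the coordinates of mm10; the study used a later release). All 9 Chd transcripts spliced from the assembly matched their annotated sequence. Location and Fisher code was tested on simulated data. Two-sided Fisher's exact tests were adjusted by the Benjamini-Hochberg method with a threshold of 0.05. Share intervals are 95% Clopper-Pearson, and those of differences are Newcombe. Encoded proteins were aligned globally with BLOSUM62. Python 3.11.15, scipy 1.17.1 and biopython 1.88 were used. All members were described, with companion lists of known partners. The members and lists were chosen with earlier results of these data known. Alternatives covered the transcript, the overlap rule, the motif, the window, the called region and each gene left out. Depth is unknown.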

Additional observations from a re-analysis of the deposited data

How the results depend on the processing

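No paired analysis was possible because the lists hold no value per library. The intron difference kept its direction in all 14 alternatives but missed an unadjusted 0.05 in 7 of them: -16.7 points with Cfg1 against Cfg3, -17.6 with 1 peak per called region and without Chd8, -18.8 without Chd9, -12.5 without Chd4, -6.67 without Chd6, and -11.1 when a peak touching an exon counted as exonic. Exact p-values ran between 0.0275 and 0.395. Every one of these leaves fewer peaks or fewer intronic peaks. The GGACT difference kept its direction in all 15 alternatives, 1 of them (exonic peaks only) chosen after seeing the data, and missed the threshold in 2: with the 18 pentamers it was 5.56 points, and in equal windows of 50 nt on each side of the midpoint 20.3 points. Exact p-values ran between 0.000945 and 0.367. The count of 49 peaks was the same under all 3 other overlap rules. Stop codon peaks numbered 6 within 100 nt and 12 within 400 nt. The 0.382 SySy-called peaks per kb of exon over the 9 genes fell to 0.255 with exons merged over all transcripts, which lengthens the exons. No depth is known for any peak, so a missing peak is not a measured absence of m6A.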

Other observations

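The genes whose counts of exonic and intronic peaks in the 3 lists were nearest to those of Chd6 differed from it by 2 peaks in sum. This distance was shared by 8 genes: Asxl2, Bahcc1, Luzp1, N4bp1, Setd2, Tnks1bp1, Tnrc6b and Zgrf1. Chd6 had 6 Cfg1, 2 Cfg2 and 1 Cfg3 exonic peaks and 2 intronic Cfg3 peaks, against 7 Cfg1, 2 Cfg2 and 2 Cfg3 exonic peaks and 2 intronic Cfg3 peaks in Setd2, which methylates histone H3 on lysine 36. Tnrc6b, a GW182 protein of microRNA silencing, had 7 Cfg1 and 2 Cfg2 exonic peaks and 2 intronic Cfg3 peaks. In all 8 genes, as in Chd6, no Cfg1 or Cfg2 peak was intronic, but those counts were among the 6 used to choose the genes. Likeness here is of 6 counts only.

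No peak lay in Chd1l, a helicase relative without chromodomains, or in 1810026B05Rik, the noncoding RNA gene (Chaserr) beside Chd2. No peak midpoint lay on the opposite strand of a Chd gene, and none lay within 5000 nt outside the 9 spans on either strand.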
